A study of Homo sapiens with 6 samples.

Results

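Cholesterol and fatty acid synthesis was followed as 34 genes: 8 of the early sterol steps from acetyl-CoA to squalene, 10 of the late steps from squalene to cholesterol, 5 regulators and carriers, 4 of fatty acid synthesis and 7 of fatty acid desaturation, elongation and activation. The genes were chosen by name, with earlier results of these data known, and every probe whose platform gene symbol matched was used. This gave 41 of the 24526 probes on the array, for 30 of the 34 genes among 16922 named in all. FDPS, FDFT1, HSD17B7 and ACSL3 were not analysed here. Of the 30 genes, 25 had a probe above background on at least 3 of 6 arrays (detection p under 0.01) and were tested. The other 5, ACAT2, MVK, PMVK, SREBF2 and STARD4, were too dim.

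The cells were HES3, an established human embryonic stem cell line. They came off irradiated human feeders, most of which were strained away (typically 90% by the labels). After 2 days on fibronectin the cells were kept for 3 days in a differentiation medium with Activin A, a ligand of the Nodal receptors, plus bone morphogenetic protein 4 (BMP4), both at 50 ng/ml, or with Activin A alone at 50 ng/ml. Total RNA was hybridised to Illumina bead arrays, 3 for each treatment. The series calls these biological replicates without saying what separates them, so p-values measure the spread between these arrays. The protocol text of every sample names both factors, so the treatment of an array was taken from its title. A single cell line was used, and RNA of remaining feeders is part of every sample.

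Both pathways start from acetyl-CoA. In the sterol branch the early enzymes make mevalonate and join isoprenoid units into squalene, and the late enzymes close squalene into a ring and trim the ring to cholesterol. In the fatty acid branch acetyl-CoA is carboxylated and extended to palmitate, and further enzymes tie fatty acids to coenzyme A, desaturate them and elongate them. The membrane-bound SREBP factors, encoded by SREBF1 and SREBF2, switch on genes of both branches. SCAP carries them out of the endoplasmic reticulum when sterols are scarce, and INSIG1 holds them there when sterols are plentiful. Growing embryonic cells use the products for new membrane, and cholesterol is also attached to Hedgehog proteins and bound by their receptors.

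The arrays detected 38.1% to 42.6% of probes with Activin A + BMP4 and 39.8% to 40.7% with Activin A. Arrays of 1 treatment correlated at 0.985 or more over tested probes, and arrays of different treatments at 0.926 to 0.945. Activin A + BMP4 replicates 1 and 2 shared 1 chip, replicate 3 was on another, and the 3 Activin A arrays were on a chip of their own, so no chip held both treatments. With the chip as a random block the members' calls below numbered the same, 9 higher and 1 lower. Such a block cannot take out a chip effect between treatments, so chip and treatment cannot be told apart here. Of 11 tested definitive endoderm markers, 8 were higher with BMP4 and 0 lower (limma, with the same counts at an unadjusted p under 0.05). They were led by SOX17 (log2 difference 2.85) and by GATA4 (1.85, limma adjusted p = 1.03e-05). GATA4 missed the detection threshold on all 3 Activin A arrays, so its p-value and its rank rest partly on values at background. As a bound, which was not itself tested, GATA4 was at least 2.57-fold higher. That bound sets its mean against the lowest normalized signal above background on each Activin A array. Of 9 tested pluripotency markers, 5 were lower, led by SOX2 (-3.27) and NANOG (-1.08), and 1, LIN28A, was higher (0.53). Levels of the fibroblast feeder markers also differed. Of 20 with a tested probe, 16 were lower, led by LOX (-2.20) and THY1 (-2.17), and 3 were higher, led by COL5A2 (1.19) and FBLN1 (0.46), with a median of -1.33. FBLN1 missed the threshold with median scaling and with the authors' processed values. Their summed normalized signal was 54285 to 57354 on the Activin A + BMP4 arrays and 95006 to 108017 on the Activin A arrays, and POSTN was not above background on any array. Of 11 tested proliferation markers, 1, CCNB1, was higher (0.55) and 1, MCM4, lower (-0.44). Leaving out single arrays took both calls away in most cases, CCNB1 without Activin A + BMP4 replicate 2 or 3 or Activin A replicate 1 or 2, and MCM4 without any array but Activin A replicate 3. Beside these marker counts, 17.6% of all tested genes were called higher, 18.1% lower and 35.8% in either direction. The called proliferation markers were 18.2% of the 11 tested. In such bulk samples fewer cells of a type and less RNA per cell cannot be told apart.

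The question here is what BMP4, added to Activin A, did to transcripts of lipid synthesis. Of 25 tested genes, 9 rose, 1 fell and 15 did not pass the threshold (limma, adjusted p under 0.05 over all tested probes). The genes that rose were EBP, SC5D, DHCR7 and TM7SF2 of the late sterol steps, FASN and ACSS2 of fatty acid synthesis, and FADS1, ELOVL6 and SCD of desaturation and elongation. The gene that fell was ACSL4, which activates polyunsaturated fatty acids such as arachidonic acid.

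The rises were 36.0% of the tested members, against 17.6% of all 8186 tested genes that were called higher. The single fall was 4.0% of the members, against 18.1% of all genes called lower. In either direction 40.0% of the members were called, close to the 35.8% of all genes. The members' median log2 difference, Activin A + BMP4 minus Activin A, was 0.30, a fold of 1.23, and the median over all tested genes was 0.0019. A difference above 0 was found for 23 of 25 members and for 50.2% of all genes. All 3 Activin A + BMP4 arrays were above all 3 Activin A arrays for 14 of 25 members, against 24.6% of all genes. The members were chosen with earlier results of these data known, so these shares are descriptions only, and no test of the list was made. No member reached a 2-fold difference, which 9.41% of all genes did with an adjusted p under 0.05. Set against each member's own Activin A mean, the median member stood at 0.24, 0.32 and 0.37 on the 3 Activin A + BMP4 arrays and at 0.0033, -0.035 and 0.018 on the 3 Activin A arrays. With the authors' processed values 5 members rose in place of 9 (EBP, SC5D, FASN, ACSS2 and FADS1). Feeder markers were lower on the same Activin A + BMP4 arrays (median -1.33), and their part in these differences was not tested.

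**Figure D1:**
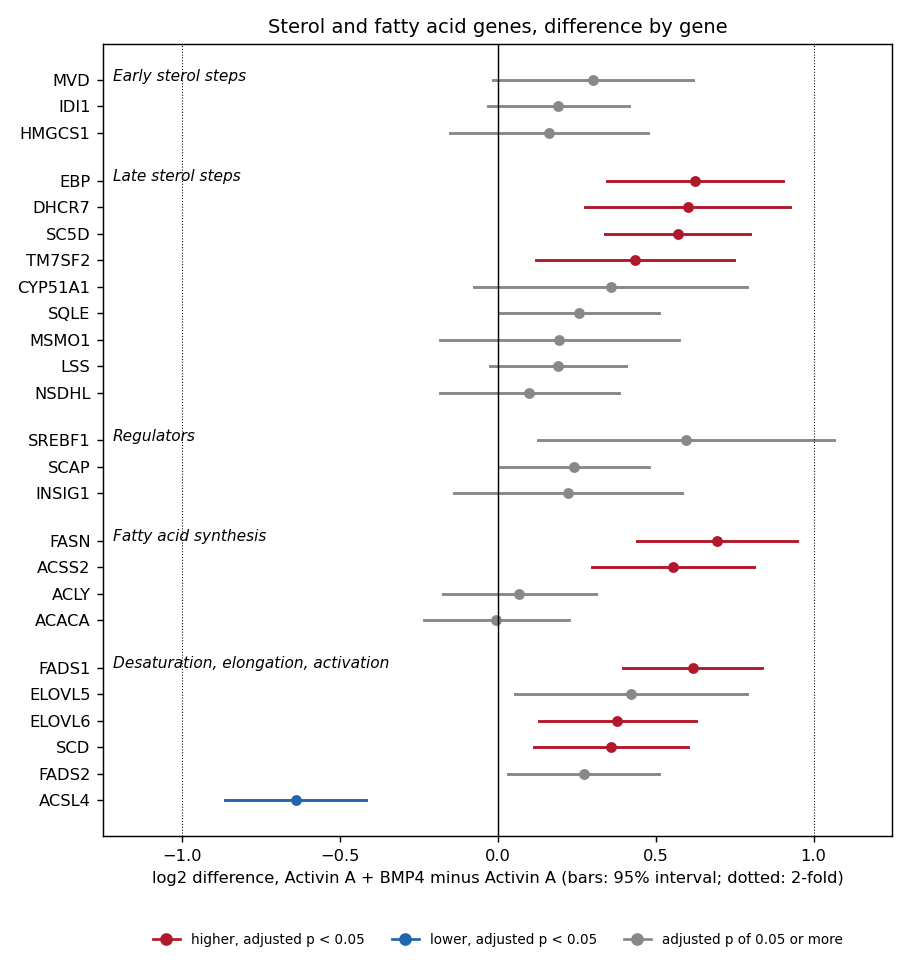
Log2 difference in normalized signal, Activin A + BMP4 minus Activin A, of the 25 tested genes by pathway step, with 95% intervals from limma (3 arrays per treatment) and colours for the call. All points but those of ACACA and ACSL4 lie right of 0, and none reaches the dotted 2-fold lines.

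None of the 3 tested early sterol genes passed the threshold (limma, with 0 also at an unadjusted p under 0.05). Of all tested genes 35.8% passed in either direction, so 3 genes are too few to set these steps apart. HMGCS1, which makes the mevalonate precursor HMG-CoA, read 11.21, 11.12 and 11.21 (normalized log2 signal) on the Activin A + BMP4 arrays and 11.23, 10.74 and 11.09 on the Activin A arrays. The treatments overlapped, and the difference of 0.16 had a 95% interval of -0.15 to 0.48 (limma adjusted p = 0.392). MVD, the decarboxylase that yields isopentenyl pyrophosphate, differed by 0.30 (interval -0.016 to 0.62, limma adjusted p = 0.128), again with overlapping arrays. IDI1 isomerises that product. It read 7.21, 7.14 and 7.08 with Activin A + BMP4 and 6.98, 6.88 and 6.99 with Activin A. Every Activin A + BMP4 array of IDI1 was above every Activin A array, yet its difference of 0.19 (interval -0.032 to 0.42) missed the threshold (limma adjusted p = 0.165). The median of the 3 genes was 0.19. Deposited signals of MVD, 71.7 to 133.6, and of IDI1, 93.7 to 138.1, were low.

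Mevalonate kinase, MVK, had deposited signals of 40.0, 36.4 and 45.8 with Activin A + BMP4 and of 38.5, 54.3 and 71.6 with Activin A, and was above background on 2 Activin A arrays only. ACAT2, the cytosolic thiolase, and PMVK, phosphomevalonate kinase, were not above background on any array. Their probes gave 28.2 to 44.9 and 10.7 to 25.3 with Activin A + BMP4, against 9.3 to 23.5 and 9.3 to 46.4 with Activin A. At this signal no difference in either gene could be measured.

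Of 9 tested late sterol genes, 4 rose, 0 fell and 5 did not pass the threshold (limma, with 5 higher and 0 lower at an unadjusted p under 0.05). Of all tested genes 17.6% rose and 18.1% fell, and no step was tested against another. All 9 differences of the late genes were above 0, with a median of 0.36, as were those of 50.2% of all tested genes. With the authors' processed values 2 of the 9 rose. EBP, the isomerase that moves the double bond of the sterol ring, read 9.99, 9.95 and 9.95 with Activin A + BMP4 and 9.27, 9.19 and 9.56 with Activin A. The groups did not overlap, and EBP was 1.54-fold higher (log2 difference 0.63 ± 0.12 SE, limma adjusted p = 0.00456). SC5D, the desaturase that acts next, read 10.24, 10.42 and 10.41 with Activin A + BMP4 and 9.82, 9.76 and 9.80 with Activin A. Its arrays were also fully apart, at 1.48-fold higher (0.57 ± 0.10 SE, limma adjusted p = 0.00286). DHCR7, which reduces 7-dehydrocholesterol to cholesterol, read 10.72, 10.88 and 10.66 with Activin A + BMP4 and 10.17, 9.90 and 10.38 with Activin A. It was 1.52-fold higher (0.60 ± 0.14 SE, limma adjusted p = 0.0113), with the Activin A arrays spread more widely than the others. With the authors' processed values DHCR7 missed the threshold (0.51, limma adjusted p = 0.0541).

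TM7SF2, a sterol C14 reductase, read 10.28, 10.47 and 10.05 with Activin A + BMP4 and 9.73, 9.76 and 9.999 with Activin A. The lowest of the first 3 arrays was just above the highest of the others. It was 1.35-fold higher (0.43 ± 0.14 SE, limma adjusted p = 0.0388), a call lost without Activin A + BMP4 replicate 1 or 2 or Activin A replicate 1 or 2, and under 7 other settings.

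The 5 late genes that did not pass were SQLE, LSS, CYP51A1, MSMO1 and NSDHL. SQLE, squalene epoxidase, a control point of the pathway, read 11.19, 11.37 and 11.46 with Activin A + BMP4 and 11.06, 11.17 and 11.02 with Activin A. Those arrays did not overlap, and the difference was 0.26 (interval 0.0040 to 0.51, limma adjusted p = 0.106). LSS, which closes the ring to lanosterol, also had arrays fully apart but differed by only 0.19 (interval -0.026 to 0.41, limma adjusted p = 0.154). CYP51A1, the lanosterol demethylase, read 7.84, 8.18 and 8.48 with Activin A + BMP4 and 7.74, 7.59 and 8.09 with Activin A. Its replicates were spread the most of the late genes, so the difference of 0.36 had an interval of -0.075 to 0.79 (limma adjusted p = 0.179). NSDHL, of the C4 demethylation complex, differed by 0.10 (interval -0.18 to 0.38, limma adjusted p = 0.569). MSMO1, the C4 methyl oxidase, had 2 tested probes. The brighter differed by 0.19 (interval -0.18 to 0.57, limma adjusted p = 0.395) and the other, whose arrays did not overlap, by 0.30 (interval 0.034 to 0.57, limma adjusted p = 0.0776).

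**Figure D2:**
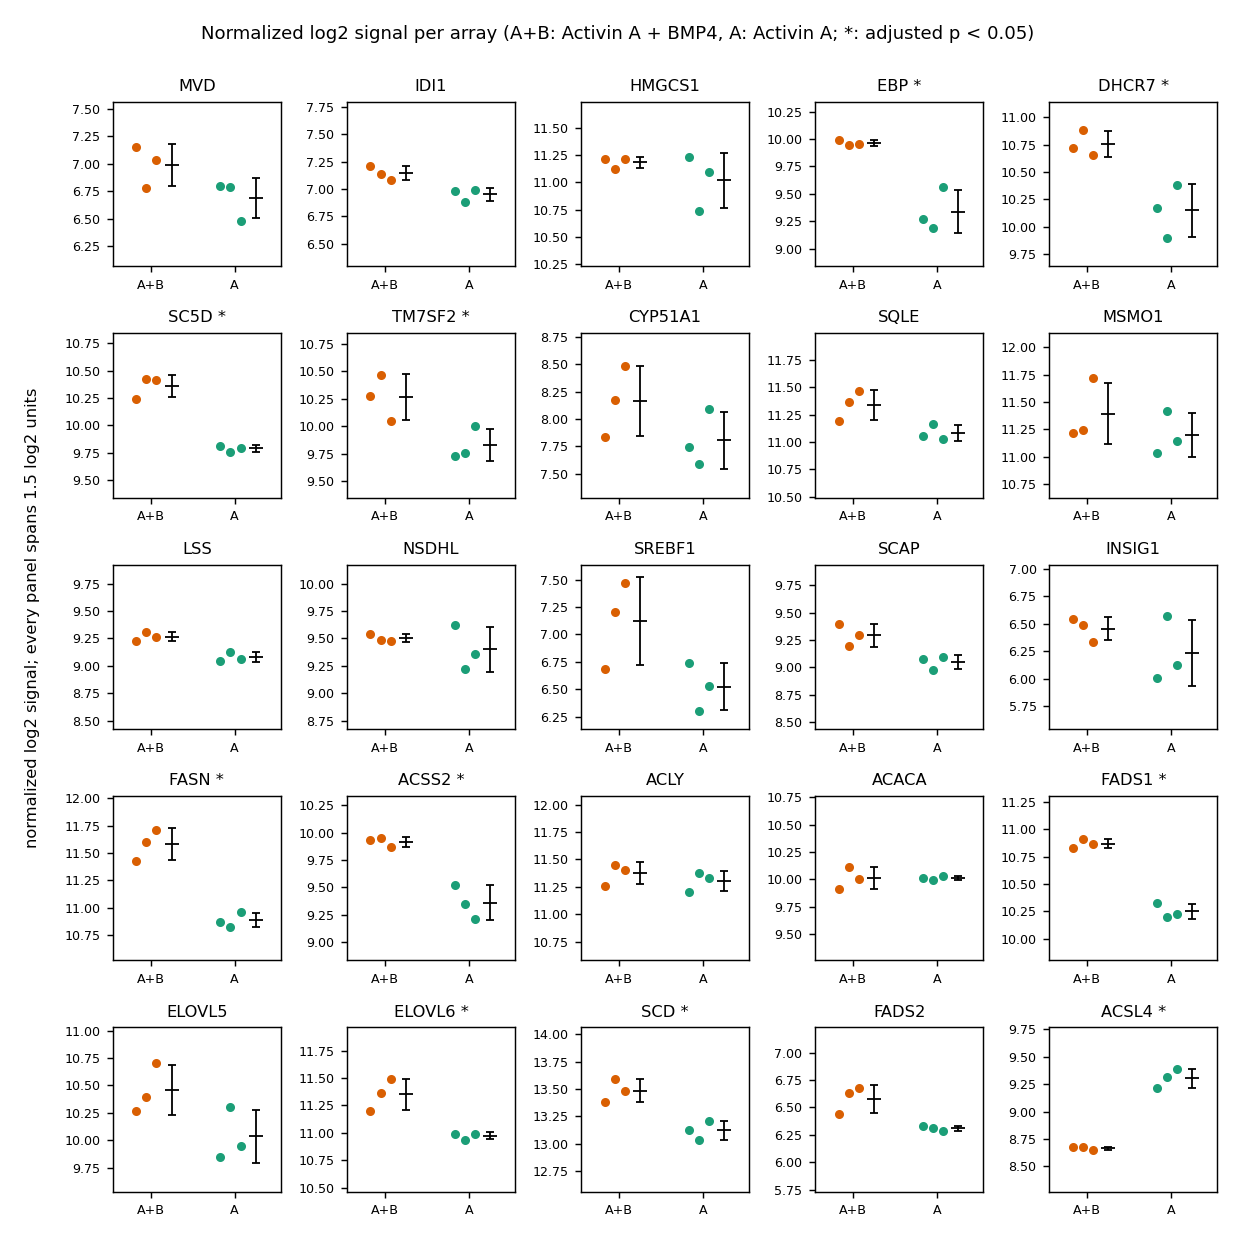
Normalized log2 signal of the 25 tested genes on each array, Activin A + BMP4 left and Activin A right, with the mean and SD (n = 3) as black bars and every panel spanning the same log2 range. EBP, SC5D, FASN and FADS1 have clear gaps between treatments, as has ACSL4 in the other direction, while HMGCS1, INSIG1 and NSDHL overlap.

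The promoters of 3 late enzymes that rose are shown because SREBP factors are known to act on sterol gene promoters together with NF-Y, which binds the CCAAT box, and Sp1, which binds GC boxes. Each is a RefSeq window (GRCh38.p14) of 250 bases before and 50 after a start, read in the direction of transcription, with CCAAT on either strand in capitals. They lie at chrX:48521558-48521857 on the plus strand (EBP), chr11:121292521-121292820 on the plus strand (SC5D) and chr11:71448344-71448643 on the minus strand (DHCR7).
EBP: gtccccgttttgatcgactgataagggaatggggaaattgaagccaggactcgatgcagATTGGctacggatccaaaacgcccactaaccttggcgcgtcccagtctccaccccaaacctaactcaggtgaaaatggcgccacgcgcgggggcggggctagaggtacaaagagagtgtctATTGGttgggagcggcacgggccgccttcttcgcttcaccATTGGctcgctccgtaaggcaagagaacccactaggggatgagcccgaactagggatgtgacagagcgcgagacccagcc
SC5D: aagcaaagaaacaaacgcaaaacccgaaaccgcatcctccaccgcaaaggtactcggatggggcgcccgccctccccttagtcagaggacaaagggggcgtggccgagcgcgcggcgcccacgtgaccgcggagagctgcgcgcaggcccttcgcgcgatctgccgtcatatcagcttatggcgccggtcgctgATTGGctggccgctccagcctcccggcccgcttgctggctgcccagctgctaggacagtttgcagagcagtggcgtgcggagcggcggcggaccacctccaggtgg
DHCR7: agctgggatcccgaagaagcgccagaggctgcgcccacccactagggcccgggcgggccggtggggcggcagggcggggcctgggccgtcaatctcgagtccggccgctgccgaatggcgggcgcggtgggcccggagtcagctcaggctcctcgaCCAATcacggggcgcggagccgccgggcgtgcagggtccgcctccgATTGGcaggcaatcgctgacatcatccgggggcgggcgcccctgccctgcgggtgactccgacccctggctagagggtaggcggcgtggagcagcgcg
The EBP window held 3 CCAAT matches, that of SC5D 1 and that of DHCR7 2. SC5D and DHCR7 have 2 windows each, of which the one printed starts at the lower coordinate. The other SC5D window overlaps the first and held the same match, and the other DHCR7 window held no CCAAT and no GC box. CCAAT was present in at least 1 window of 17 of 23 tested members with a window (73.9%), against 39.7% of all 27305 genes with one. Counted by window it was in 21 of 33 (63.6%), against 34.6% of all 35116 windows. The GC box GGGCGG, searched on both strands like the others, was present for 21 of the 23 (91.3%), against 48.3% of all genes. The sterol regulatory element, spelled TCACNCCAC, was found for 0 of the 23 and for 1.39% of all genes. These are letter matches, without a test, and base composition was not matched between members and all genes. All genes here are those with a RefSeq window, whether or not they were above background on these arrays, while the members counted were. CCAAT matches were as common over the tested members as over the 8 that rose and had a window, 6 of which held one (75.0%).

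Among the regulators, none of the 3 tested genes passed the threshold (limma, with 2 higher at an unadjusted p under 0.05). Of all tested genes 35.8% passed in either direction. SREBF1 read 6.68, 7.21 and 7.47 with Activin A + BMP4 and 6.74, 6.30 and 6.53 with Activin A. Replicates 2 and 3 with both factors were above every Activin A array and replicate 1 was not. Its difference of 0.60 ± 0.20 SE was as large as that of the called genes but had a 95% interval of 0.13 to 1.06, and it just missed the threshold (limma adjusted p = 0.0518). Deposited signals of SREBF1 were low, 58.3 to 184.2, and its difference ran from 0.38 to 0.82 over the alternatives. SREBF1 passed under 6 of 20 alternatives, among them leaving out Activin A + BMP4 replicate 1, where the difference was 0.82 (limma adjusted p = 0.00894). Of its other 2 probes, one was above background on a single array and the other on none. SCAP differed by 0.24 (interval 0.0056 to 0.48, limma adjusted p = 0.103) with arrays that did not overlap, and INSIG1 by 0.22 (interval -0.14 to 0.58, limma adjusted p = 0.311). Deposited signals of INSIG1 were low, 53.0 to 76.4, and above background on only 2 Activin A arrays. INSIG1, itself a sterol-responsive target, passed without Activin A replicate 2 (0.40, limma adjusted p = 0.0482), where it read 6.57 against 6.004 and 6.12 on the other Activin A arrays.

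SREBF2 was not above background on any array, with deposited signals of 18.3 to 27.3 with Activin A + BMP4 and 2.8 to 36.1 with Activin A. STARD4, a soluble sterol carrier, had signals of -5.7 to 1.8 and of -9.3 to -5.8, which is the level of background. The SREBF2 promoter is printed because it held the only sterol regulatory element match among the listed members (chr22:41832855-41833154, plus strand, GRCh38.p14). That match starts 133 bases before the annotated start, and a CCAAT box on the other strand starts 106 bases before it. Both are in capitals.
SREBF2: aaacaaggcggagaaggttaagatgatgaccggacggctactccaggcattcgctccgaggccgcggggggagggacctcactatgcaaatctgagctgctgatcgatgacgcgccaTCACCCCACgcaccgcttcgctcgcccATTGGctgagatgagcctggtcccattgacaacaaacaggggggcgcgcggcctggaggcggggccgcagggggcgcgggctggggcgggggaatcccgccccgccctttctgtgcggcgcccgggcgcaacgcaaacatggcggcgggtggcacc

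The 10 tested fatty acid genes gave 5 of the 9 rises and the only fall. In synthesis proper, 2 of 4 genes rose and 2 did not pass, with a median of 0.31. Of all tested genes 17.6% rose. FASN, the fatty acid synthase that builds palmitate, read 11.43, 11.60 and 11.71 with Activin A + BMP4 and 10.87, 10.83 and 10.96 with Activin A. This was the widest difference among the members, 1.62-fold higher (0.69 ± 0.11 SE, limma adjusted p = 0.00171), and 17.1% of all tested genes had a larger one in either direction. ACSS2, which makes cytosolic acetyl-CoA from acetate, read 9.93, 9.95 and 9.86 with Activin A + BMP4 and 9.53, 9.34 and 9.21 with Activin A. Its arrays were fully apart, at 1.47-fold higher (0.55 ± 0.11 SE, limma adjusted p = 0.00559), and its other 2 probes were at background. FASN and ACSS2 passed under all 20 alternatives run for single genes.

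The other 2 genes of synthesis, ACLY and ACACA, did not pass. ACLY, which makes acetyl-CoA from citrate, read 11.26, 11.45 and 11.41 with Activin A + BMP4 and 11.20, 11.38 and 11.33 with Activin A. The difference was 0.068, with an interval of -0.17 to 0.31 (limma adjusted p = 0.652). ACACA, acetyl-CoA carboxylase, makes malonyl-CoA. It read 9.91, 10.11 and 10.01 with Activin A + BMP4 and 10.01, 9.99 and 10.03 with Activin A, and differed by -0.0051 (interval -0.23 to 0.22, limma adjusted p = 0.977). The ACACA interval ends below the lower end of the FASN interval, 0.44. The difference between these genes and FASN was not itself tested.

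The ACSS2 window at chr20:34874739-34875038 (plus strand, GRCh38.p14) is given for the acetate branch, with its CCAAT match in capitals. It is 1 of 2 windows of ACSS2, and the other held no CCAAT and 3 GC boxes.
ACSS2: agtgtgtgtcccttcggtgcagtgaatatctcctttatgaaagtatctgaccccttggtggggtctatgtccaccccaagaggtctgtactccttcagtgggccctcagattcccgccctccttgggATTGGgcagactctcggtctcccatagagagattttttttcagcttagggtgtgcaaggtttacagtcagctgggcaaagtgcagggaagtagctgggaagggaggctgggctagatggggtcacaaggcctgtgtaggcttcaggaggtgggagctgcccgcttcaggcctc

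Of 6 tested genes of desaturation, elongation and activation, 3 rose, 1 fell and 2 did not pass. Of all tested genes 17.6% rose and 18.1% fell. The number of the 6 that rose was 1, FADS1, with median scaling, with the authors' processed values and without a filter on dim probes. It was also 1 without Activin A + BMP4 replicate 2 or 3 or Activin A replicate 1. FADS1, the delta-5 desaturase of polyunsaturated fatty acids, read 10.83, 10.91 and 10.87 with Activin A + BMP4 and 10.33, 10.20 and 10.23 with Activin A. The replicates were tight and far apart between treatments, 1.53-fold higher (0.62 ± 0.10 SE, limma adjusted p = 0.00151). Its neighbour FADS2, the delta-6 desaturase, read 6.44, 6.63 and 6.68 with Activin A + BMP4 and 6.33, 6.31 and 6.29 with Activin A. The arrays did not overlap, and the difference of 0.27 (interval 0.031 to 0.51) missed the threshold (limma adjusted p = 0.0772), passing only without Activin A + BMP4 replicate 1. Deposited signals of FADS2 were low, 58.8 to 101.3.

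SCD, which makes oleate and palmitoleate, read 13.38, 13.59 and 13.48 with Activin A + BMP4 and 13.13, 13.03 and 13.21 with Activin A. It was 1.28-fold higher (0.36 ± 0.11 SE, limma adjusted p = 0.0303). ELOVL6, which extends palmitate to stearate, read 11.20, 11.37 and 11.49 with Activin A + BMP4 and 10.99, 10.94 and 10.99 with Activin A. It was 1.30-fold higher (0.38 ± 0.11 SE, limma adjusted p = 0.0267). SCD missed the threshold without Activin A + BMP4 replicate 2 or 3 or Activin A replicate 1 or 2, and ELOVL6 missed it without any array but Activin A + BMP4 replicate 1. Among the other 14 alternatives SCD missed it in 5 and ELOVL6 in 4. ELOVL5, which extends polyunsaturated chains, differed by 0.42 (interval 0.054 to 0.79, limma adjusted p = 0.0733), with Activin A replicate 2 at 10.30 inside the Activin A + BMP4 range, and passed without that array (0.55, limma adjusted p = 0.0321).

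ACSL4 ran the other way. It read 8.68, 8.67 and 8.65 with Activin A + BMP4 and 9.21, 9.32 and 9.38 with Activin A, 1.56-fold lower with BMP4 (log2 difference -0.64 ± 0.10 SE, limma adjusted p = 0.00132). The fall held under all 20 alternatives. Its other 2 probes were at background. The feeder markers were lower on the same arrays, by a median of -1.33, and their part in the fall of ACSL4 was not tested.

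**Figure D3:**
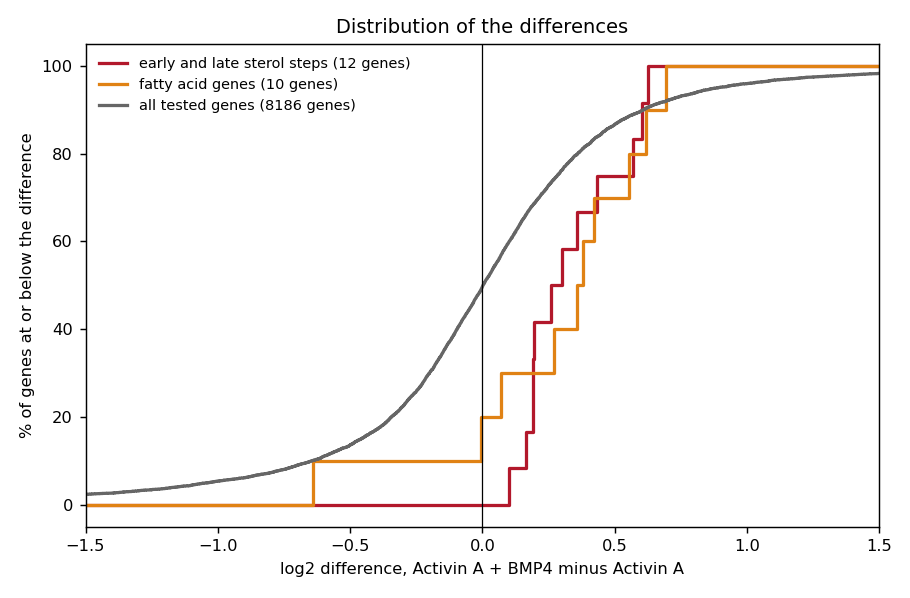
Cumulative share of genes (% of genes, y axis) at or below each log2 difference, Activin A + BMP4 minus Activin A (x axis), for 12 early and late sterol genes, 10 fatty acid genes and all 8186 tested genes. Both lipid curves lie right of the curve of all genes over most of the range and end before a difference of 1. The step of ACSL4 at -0.64 brings the fatty acid curve to about the level of all genes, 10.1% of which lie below it. At the upper end both lipid curves lie left of the curve of all genes. Above EBP, the highest sterol gene, were 9.42% of all tested genes, and above FASN, the highest fatty acid gene, 8.01%.

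Other genes of lipid handling were read from further lists. Beside their counts stand 17.6% of all tested genes called higher, 18.1% called lower and 35.8% in either direction. Of 10 tested sterol and isoprenoid enzymes outside the 34, 1 rose, 1 fell and 8 did not pass, with a median of 0.045. The riser was LBR, the lamin B receptor, which also carries sterol C14 reductase activity like TM7SF2 (log2 difference 0.83 ± 0.13 SE, limma adjusted p = 0.00125). The gene that fell was DHDDS, of dolichol synthesis, which fell by 0.50 and missed the threshold without Activin A + BMP4 replicate 3 or Activin A replicate 1. Of 7 tested further regulators of SREBP processing and of sterol sensing, none passed (limma, with 1 higher at an unadjusted p under 0.05), and 1 was lower without Activin A replicate 3.

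Of 11 tested genes of cholesterol uptake, transport, storage and efflux, 5 were higher and 2 lower, with a median of 0.38. Among all tested genes 17.6% were higher and 18.1% lower, shares that apply to both lists of this paragraph. CYP27A1, which oxidises cholesterol to 27-hydroxycholesterol, was 2.76-fold higher (1.47 ± 0.15 SE), ABCA1, the exporter of cholesterol to apolipoprotein A-I, 2.12-fold (1.09 ± 0.12 SE) and NPC2, which hands cholesterol out of the lysosome, 1.85-fold (0.89 ± 0.12 SE). LIPA, the lysosomal lipase that frees cholesterol from its esters, was 1.88-fold lower and the oxysterol-binding protein gene OSBP 1.42-fold lower. Among 12 tested further genes of fatty acid synthesis, 4 were higher and 2 lower (median 0.24). MID1IP1, an activator of acetyl-CoA carboxylase, differed by 0.93, SCD5, another stearoyl desaturase, by 0.86, and ELOVL1, above background on only 1 Activin A array, by 0.78. The genes that fell were ACSL1, by 0.71, and ELOVL4, by 0.43. The number lower was 0 without Activin A + BMP4 replicate 1 or 2 or Activin A replicate 2, and 1 without any other single array. ACSL1 missed the threshold without Activin A + BMP4 replicate 1 or 2 or Activin A replicate 2 or 3, and ELOVL4 without any array but Activin A replicate 3. ACSL1 was above background on 1 Activin A + BMP4 array and 2 Activin A arrays.

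Glycerolipid synthesis genes, which build phospholipids and triglycerides from fatty acids, were higher in 6 of 14 and lower in 1 (median 0.30). CDS2, which makes CDP-diacylglycerol, differed by 0.75, AGPAT1, an acyltransferase that makes phosphatidic acid, by 0.49 and DGAT1, the last enzyme of triglyceride synthesis, by 0.47, and AGPAT5 fell by 0.42. Leaving out Activin A replicate 1 or 3 left 3 and 2 genes higher, AGPAT1 missed the threshold without Activin A + BMP4 replicate 2 or Activin A replicate 1 or 3, DGAT1 without Activin A + BMP4 replicate 1 or Activin A replicate 3, and AGPAT5 without Activin A + BMP4 replicate 2 or 3 or Activin A replicate 2 or 3. Fatty acid oxidation was mixed, with 5 of 18 higher, 5 lower and a median of -0.28. CPT1A, the gate for fatty acid entry into mitochondria, fell by 0.74, ACADVL, the very long chain acyl-CoA dehydrogenase, by 0.63 and ECI2, an enoyl-CoA isomerase, by 0.61. ECI2 missed the threshold when its tested probes were averaged (-0.24, limma adjusted p = 0.123). The peroxisomal genes EHHADH and HSD17B4 were higher, by 1.47 and 0.54, and so was DECR1, of unsaturated chains, by 0.61. Of the oxidation genes 3 were higher without Activin A + BMP4 replicate 1 or 2 or Activin A replicate 1 or 3, and 2 without Activin A + BMP4 replicate 3. DECR1 missed the threshold without Activin A + BMP4 replicate 1 or 3. In each list the called genes passed limma at an adjusted p under 0.05. Called genes were 35.8% of all tested genes, with 17.6% higher and 18.1% lower. The feeder markers' median of -1.33 on the same arrays applies to these lists too.

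**Figure D4:**
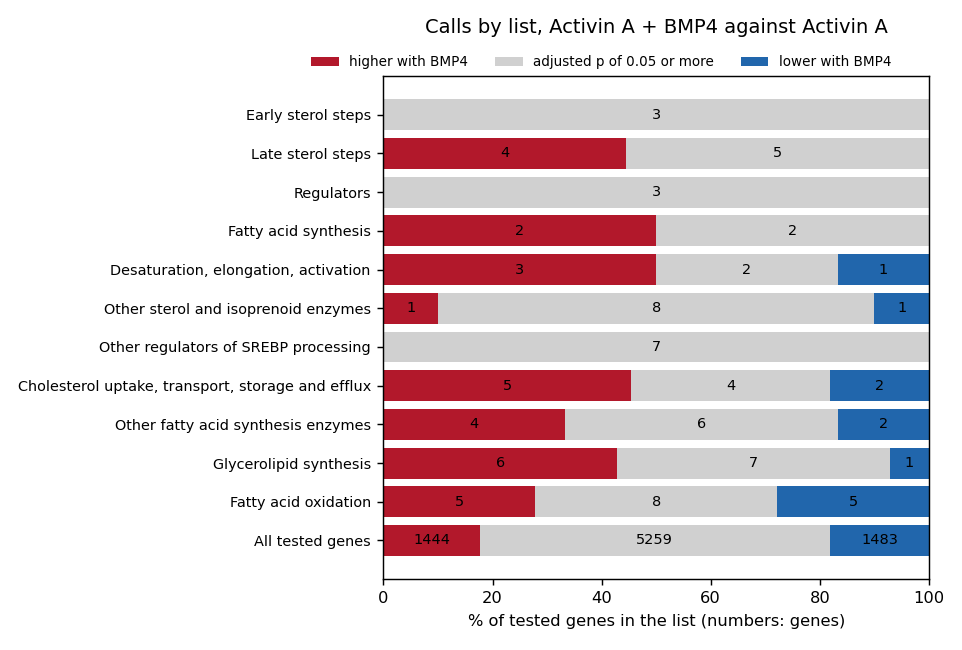
Share of tested genes (x axis, %) that were higher, not past the threshold or lower with Activin A + BMP4 against Activin A, by list, with the number of genes in each bar segment and all 8186 tested genes at the bottom. None of the 3 tested early sterol genes and none of the 3 tested regulators passed, and fatty acid oxidation holds equal numbers of rises and falls.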

How the data were processed

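HES3 cells were compared on 6 arrays, 3 per treatment. The deposited probe values are linear intensity values that the file headers call non-normalized, with 22.2% to 24.6% negative on each array, so background had been subtracted. The deposited detection score, headed as a detection p-value per the file headers, rose with the signal (Spearman correlation at least 0.980 per array) and 1 minus this score served as the detection p. The table processed by the authors holds log2 values. For 6507 probes above a signal of 100 on all arrays these equalled log2 signal plus a probe and an array constant to within 1.20e-06, with array medians of -0.147 to 0.147. The baseline of each probe's centring is unknown. The sources used here name no scanner software.

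Signals were normalized with neqc (offset 16, control moments inferred from those p-values, then quantile normalization) in limma 3.58.1 under R 4.3.3. Probes with a detection p under 0.01 on at least 3 of 6 arrays were tested, 10116 of 24526. The fit (lmFit and eBayes, two-sided) had treatment as its only term, and p-values were adjusted by Benjamini-Hochberg over every tested probe, with a threshold of 0.05. A gene was represented by its tested probe of highest mean signal. The platform annotation gave 21834 probes 1 symbol and 2692 none. Array number limits precision. Percent of probes detected gave p = 0.9 between treatments (exact two-sided permutation test, where 3 against 3 arrays cannot go below 0.1). Replicate numbers are shared between treatments, but same-numbered arrays deviated from their group means with correlations of 0.035, -0.029 and -0.050, so numbers were not taken as pairs.

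Members and lists were chosen with earlier results of these data known. All members are accounted for. From each other lipid list up to 3 called genes per direction with the largest differences are named, and from each marker list up to 2. Promoter windows are RefSeq's (GRCh38.p14, 250 bases before to 50 after the start, found for 27 of the 30 members with a probe, a gene counting as holding a motif if any of its windows did), with motifs searched on both strands. The script was tested on simulated data. Alternatives covered background correction, scaling, the authors' values, the filter on dim probes, variance moderation, replicate and chip blocks, probe choice, thresholds and leaving out each array.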

Additional observations from a re-analysis of the deposited data

How the results depend on the processing

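Single genes were run under 20 alternatives. Of 499 comparisons of the 25 members with an alternative, 455 left the call as it was, 31 took a call away, 13 added one and 0 turned the direction of a called gene. Among those not called, ACLY ran from -0.048 to 0.12 and ACACA from -0.057 to 0.044. EBP, SC5D, FASN, ACSS2, FADS1 and ACSL4 passed in each, TM7SF2 missed the threshold in 11, SCD and ELOVL6 in 9 each and DHCR7 in 2. Of 657 comparisons of the 33 other named genes 59 took a call away and 0 turned the direction. The number of members that rose was 5 with the authors' processed values and 5, the same genes, at an adjusted p under 0.01, where 851 of all genes were higher and 964 lower. At 2-fold or more 0 members were higher and 0 lower, against 328 and 442 of all genes. Leaving out each array in turn gave 6 to 10 members higher, 1 lower, a median of 0.26 to 0.34, 1126 to 1276 of all genes higher, 1214 to 1341 lower and a median over all genes of -0.0040 to 0.0088. Median scaling moved the median over all genes to -0.032, and the authors' values to -0.029. With a replicate block 7 members rose and 1 fell, SCD and TM7SF2 being lost, with 1369 of all genes higher and 1358 lower, and the check of the numbers did not show pairs. A random block for the chip (consensus correlation 0.015) left 9 members that rose and 1 that fell, but it cannot separate chip from treatment. The cause of these changes was not tested. Signals near background limit MVK, PMVK, ACAT2, SREBF2 and STARD4, for which no difference could be measured. Low signals also limit tested genes such as SREBF1, INSIG1, FADS2, MVD and IDI1.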
